A study of Mus musculus with 12 samples.

Results

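The genes of the mitochondrial fission and fusion machinery were followed in HT22 cells, an immortalized line from mouse hippocampus, when NCOA4 was silenced, when iron was withheld, and when both were done. The set held 10 genes out of the 24343 measured and was fixed by name: Dnm1l, Fis1, Mff, Mtfp1 and Mtfr1 on the fission side, Mfn1, Mfn2 and Opa1 on the fusion side, and the inner membrane proteases Oma1 and Yme1l1. RNA-seq of total RNA was available for 12 libraries, 3 biological replicates in each of 4 groups. Cells of the siControl group received a control siRNA and normal iron, those of the siNCOA4 group an siRNA against Ncoa4, the receptor that carries ferritin to the lysosome for iron release. The siControl+DFO and siNCOA4+DFO groups received the same siRNAs and, in addition, deferoxamine (DFO), an iron chelator, at 100 µM for 24 h. The paper reports lower viability and altered cell shape when both treatments were combined, and no effect on viability of either alone. The part of this in the values below was not tested. All groups shared the same cell line and liposome transfection, so the siRNA acted in a population of 1 line in culture and not in neurons of a brain.

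Mitochondria divide and merge continuously. Division is carried out by the dynamin-related GTPase DRP1 (Dnm1l), which is recruited from the cytosol by receptors on the outer membrane such as MFF and FIS1 and constricts the organelle. Fusion of the outer membranes is carried out by the mitofusins MFN1 and MFN2 and that of the inner membranes by OPA1, whose long forms are cut by the proteases OMA1 and YME1L. Neurons depend on both processes to keep mitochondria supplied along their processes. The values below are transcript levels, and the cutting of OPA1 and the recruitment of DRP1 take place on the proteins.

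Coordinates of all 10 genes were found in the RefSeq table of mouse build GRCm38.p6, and upstream sequence of 9 of them, Mtfr1 being the one without an entry. The 250 bases before each start listed there, 14 windows in all, were searched on both strands for 3 short motifs. These were ACGTG, the core letters of the element bound by hypoxia-inducible factors, GCGCATGC, part of the motif of nuclear respiratory factor NRF1, and CCGGAAG, a core bound by ETS factors such as GABP. Among 32851 promoters of the same length 16.6% held the first, 2.26% the second and 6.91% the third. The stretches of 30 bases around the matches in members called in at least 1 comparison are shown because they are the places where the genes that moved carry these letters, with the matched letters in capitals.
Fis1, chr5:136953245-136953274, plus strand: aggaggcaccacCCGGAAGttcaggcttcc
Mfn1, chr3:32529426-32529455, plus strand: agatccgaagcgCCGGAAGtagccgcccct
Mfn2, chr4:147904684-147904713, minus strand: gcgccggctagtgACGTGttgggtgtgatg
Opa1, chr16:29579264-29579293, plus strand: agtggctccccGCGCATGCGCatgtcatcc
The ETS core of Fis1 began 18 bases before the upstream one of its 2 listed starts, which is the outer end of the gene. That of Mfn1 began 44 bases before the listed start at 32529482, which lies inside the gene span given below, so that the match runs across the outer end of the gene at 32529443. The ACGTG of Mfn2 lay 39 bases before the innermost of its 3 listed starts, at 147904661, and so inside the gene span. In Opa1 the letters in capitals are 2 overlapping matches to the NRF1 part, 1 on each strand, and they too run across the outer end of the gene, before a listed start at 29579334. Of the 14 windows 10 reached into the gene span. Those of Oma1 and Yme1l1, the inner one of Dnm1l and the downstream one of Fis1 lay wholly inside it. The windows of Dnm1l, Mff, Oma1 and Mtfp1 held none of the 3 motifs, while that of Yme1l1 held the ETS core at 2 places. No promoter activity or factor binding was measured in these libraries.

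The values were FPKM, fragment counts scaled for transcript length and library size. A comparison of levels between genes rests on the transcript lengths used, and the annotation behind them is not given in the sources used. The step between low values of a gene gave relative depths that differed by 1.52-fold between the deepest and the shallowest library, and the siNCOA4+DFO group held the shallowest. Ncoa4 stood at 6.02 to 6.46 FPKM in siControl, 0.77 to 0.952 in siNCOA4, 7.52 to 8.70 in siControl+DFO and 0.85 to 1.57 in siNCOA4+DFO, and Tfrc, the transferrin receptor, at 68.6 to 72.5, 66.0 to 80.0, 318 to 348 and 224 to 264 FPKM. Ncoa4 was lower in all 6 libraries with its siRNA and Tfrc higher in all 6 with DFO. Of 10 neuronal markers only Tubb3 and Syn1 passed the floor of 0.5 FPKM in 3 libraries, while Map2, Rbfox3 and Snap25 were among the 8 that did not, and the summed level of the 10 was 13.3 to 14.0 FPKM in siControl, 9.85 to 12.8 in siNCOA4, 17.5 to 18.5 in siControl+DFO and 10.9 to 14.0 in siNCOA4+DFO. The summed level of 5 fibroblast markers, mainly Col1a1 and Col1a2, was 1280 to 1570 FPKM in siControl, 728 to 930 in siNCOA4, 347 to 464 in siControl+DFO and 394 to 482 in siNCOA4+DFO. Of 6 microglia markers Tmem119 alone passed the floor and P2ry12 was listed at 0 in all libraries, with summed levels of 10.1 to 11.8 FPKM in siControl, 3.79 to 5.78 in siNCOA4, 1.04 to 1.80 in siControl+DFO and 0.587 to 2.01 in siNCOA4+DFO. The 6 astrocyte markers, with Gfap and Aqp4 below the floor, summed to 63.0 to 71.7 FPKM in siControl, 56.2 to 59.8 in siNCOA4, 61.6 to 67.5 in siControl+DFO and 63.9 to 68.6 in siNCOA4+DFO, but these sums hid opposite shifts. Slc1a3 was at 36.1 to 45.6 FPKM in siControl and 2.64 to 4.65 in siControl+DFO (-3.54 on the log2 scale), whereas Gja1 was at 23.6 to 26.5 and 56.8 to 62.0 (1.25) and Aldh1l1 at 0.285 to 0.354 and 0.535 to 0.839 (0.86), genes singled out after their values were seen. The 5 oligodendrocyte markers summed to 0.286 to 1.47 FPKM over all libraries, with Mag and Sox10 at 0. Small RNA genes took 36.5% to 41.4% of the summed FPKM without DFO and 42.2% to 52.4% with it. The part of these shifts in the results below was not tested. All libraries came from the same cell line, so these markers do not count cells of different types. In such bulk libraries, fewer cells expressing a gene and less of its RNA per cell cannot be told apart.

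In siControl the members spanned a wide range of levels. Fis1 was highest at 75.6 ± 21.9 FPKM (SD, n = 3), followed by Yme1l1 at 31.2 ± 2.11, Dnm1l at 30.5 ± 1.35, Mff at 26.7 ± 4.10 and Opa1 at 25.6 ± 0.842. Then came Mfn1 at 23.5 ± 1.02, Mtfr1 at 19.7 ± 2.26, Mfn2 at 18.4 ± 1.00 and Oma1 at 8.69 ± 1.77. In this order Yme1l1 overlapped Dnm1l, Dnm1l overlapped Mff, Mff overlapped Opa1 and Mtfr1 overlapped Mfn2 in their replicate ranges, and the other neighbours did not overlap. Mtfp1 was at or near 0.

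**Figure D1:**
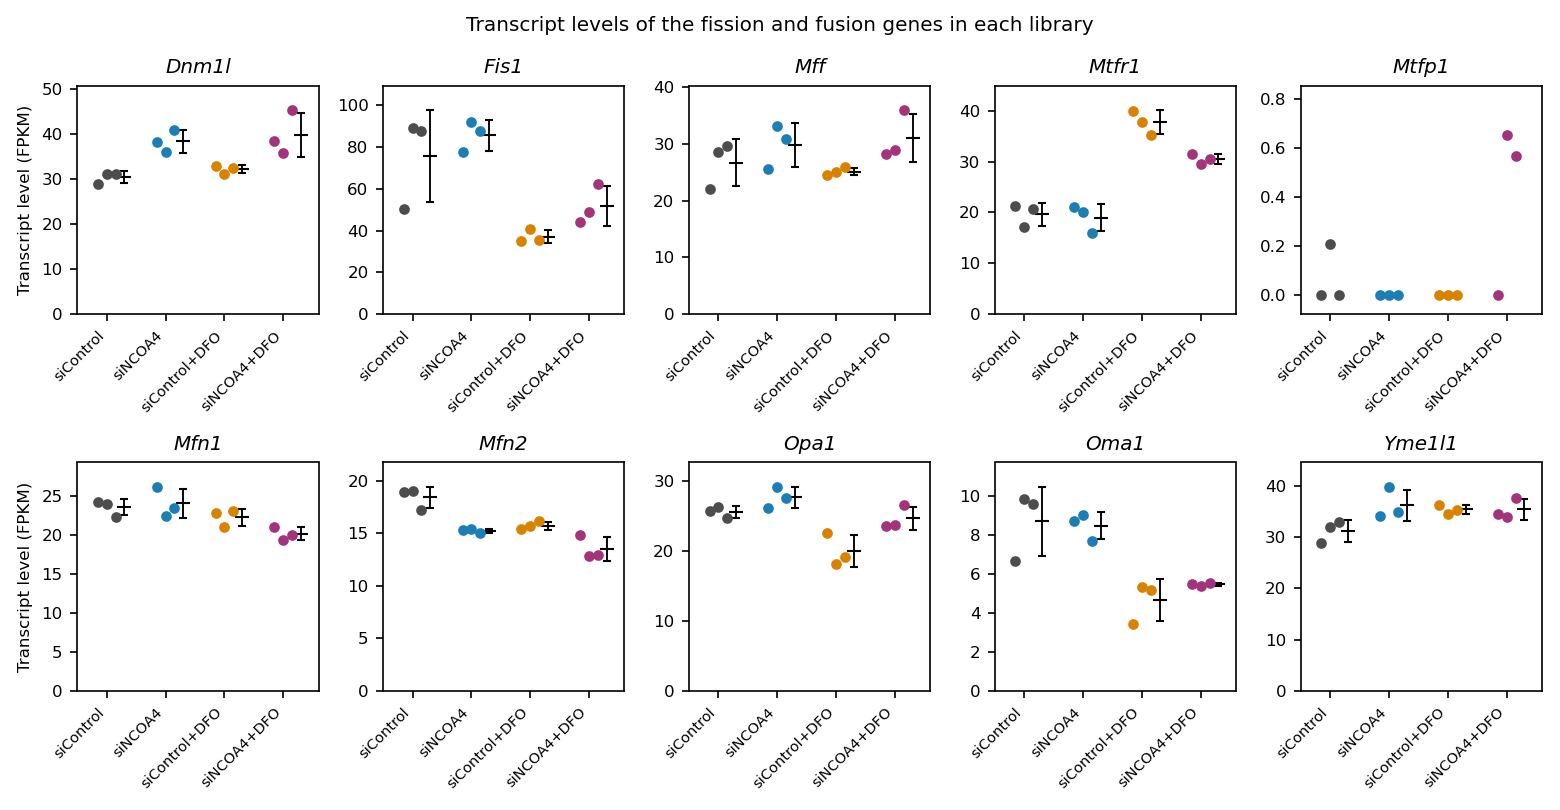
FPKM of each of the 10 genes in the 12 libraries, with 1 point per library, the 4 groups along the horizontal axis, and the mean and SD of 3 libraries beside the points except for Mtfp1. Mtfr1 lies at 35.3 to 40.0 FPKM in siControl+DFO against 17.1 to 21.3 in siControl, and Fis1 and Oma1 are lower with DFO.

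Among the fission genes, Mtfr1 rose with DFO, Fis1 fell with DFO, and Dnm1l was higher in the libraries with the Ncoa4 siRNA. Each change below is a difference of log2(FPKM + 0.1) with its standard error from a limma fit over all 12 libraries, and a gene was called where its Benjamini-Hochberg adjusted p over the 11924 genes tested was below 0.05.

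Dnm1l encodes DRP1 itself. It is annotated on chromosome 16, 16312228 to 16359038, on the minus strand. Its level was 28.9, 31.2 and 31.2 FPKM in siControl, 38.2, 36.0 and 41.0 in siNCOA4, 33.0, 31.2 and 32.6 in siControl+DFO, and 38.4, 35.8 and 45.3 in siNCOA4+DFO. All 6 libraries with the Ncoa4 siRNA lay above all 6 with the control siRNA, and replicate 3 of siNCOA4+DFO was the highest. The gene was higher in siNCOA4 than in siControl by 0.33 ± 0.09 on the log2 scale, or 1.26-fold (limma, adjusted p = 0.0329), and in siNCOA4+DFO than in siControl by 0.38 ± 0.09 (adjusted p = 0.00403). Between the DFO groups it was 0.30 ± 0.09 higher with the Ncoa4 siRNA (adjusted p = 0.0439), and DFO alone gave 0.08 ± 0.09 (adjusted p = 0.455). The call of siNCOA4 against siControl was lost without any 1 of the 6 libraries compared, with adjusted p from 0.0509 to 0.121, or with no mean-variance trend in the fit (0.059). The call between the DFO groups was lost without any library other than siControl replicate 1 and siNCOA4+DFO replicate 2, with adjusted p from 0.0501 to 0.136, and without a filter, without the trend or in a fit of the compared groups alone, with adjusted p from 0.0569 to 0.102.

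Fis1 encodes a small outer membrane protein that takes part in recruiting the fission machinery. The gene is at chromosome 5, 136953275 to 136966234, plus strand, and the 250 bases before its upstream start, with the ETS core in capitals, read:
Fis1 upstream, chr5:136953025-136953274, plus strand: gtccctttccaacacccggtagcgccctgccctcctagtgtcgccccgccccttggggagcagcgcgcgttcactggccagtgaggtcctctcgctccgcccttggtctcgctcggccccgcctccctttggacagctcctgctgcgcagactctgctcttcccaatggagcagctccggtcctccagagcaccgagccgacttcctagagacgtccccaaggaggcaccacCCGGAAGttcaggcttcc
Fis1 stood at 50.4, 88.9 and 87.5 FPKM in siControl, 77.5, 91.9 and 87.8 in siNCOA4, 35.2, 40.7 and 35.4 in siControl+DFO, and 44.0, 48.8 and 62.5 in siNCOA4+DFO. Replicate 1 of siControl was far below the other two siControl libraries and overlapped the siNCOA4+DFO range, whereas siControl+DFO lay below every library of the other 3 groups. With DFO alone Fis1 fell by 0.98 ± 0.19 on the log2 scale, to 0.507 times the siControl level (adjusted p = 0.00105), and by 1.25 without siControl replicate 1 (adjusted p = 2.08e-05). The Ncoa4 siRNA alone gave 0.225 ± 0.194, which was not called (adjusted p = 0.508), and -0.044 without siControl replicate 1. The paper names FIS1 among the proteins that were higher after the loss of NCOA4, a result on protein and not on transcript. In the NCOA4-depleted cells DFO lowered Fis1 by 0.74 ± 0.19 (siNCOA4+DFO against siNCOA4, adjusted p = 0.00854). Against siControl the siNCOA4+DFO group was lower by 0.52 ± 0.19 (adjusted p = 0.0437). That difference was 0.78 without siControl replicate 1 (adjusted p = 0.000671), and its call was lost without any other library except siNCOA4+DFO replicate 3, with adjusted p from 0.0511 to 0.167, as it was under 5 other settings (0.0516 to 0.0969). The siNCOA4+DFO libraries lay above those of siControl+DFO, by 0.47 ± 0.19, which did not pass the test (adjusted p = 0.12) unless siControl replicate 1 was left out (adjusted p = 0.0229) or libraries were scaled to an equal sum without small RNA genes (adjusted p = 0.0485).

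Mff, the outer membrane receptor of DRP1, is on chromosome 1, 82724890 to 82752390, plus strand. It was measured at 22.0, 28.6 and 29.6 FPKM in siControl, 25.6, 33.1 and 30.8 in siNCOA4, 24.6, 25.0 and 25.9 in siControl+DFO, and 28.3, 29.0 and 35.9 in siNCOA4+DFO. The groups overlapped except that siNCOA4+DFO lay above siControl+DFO, and Mff was not called in any comparison in the fit described. The widest difference, 0.30 ± 0.13 between the DFO groups, had an adjusted p of 0.146 and a 95% interval from 0.01 to 0.58. It passed with scaling to an equal sum (0.43, adjusted p = 0.0459). Replicate 1 of siControl was again the lowest of its group.

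Mtfr1, a mitochondrial protein named as a fission regulator, had the widest rise of the set. The gene spans 19187315 to 19220817 on chromosome 3, plus strand. It was measured at 21.3, 17.1 and 20.6 FPKM in siControl, 21.0, 20.1 and 15.9 in siNCOA4, 40.0, 37.8 and 35.3 in siControl+DFO, and 31.5, 29.5 and 30.5 in siNCOA4+DFO. The 6 libraries with DFO lay above the 6 without it, and siNCOA4+DFO lay between siControl and siControl+DFO without overlap. DFO raised it by 0.94 ± 0.11 on the log2 scale in control cells, or 1.92-fold (adjusted p = 2.29e-05), and by 0.69 ± 0.11 in NCOA4-depleted cells (adjusted p = 0.000403). The siNCOA4+DFO group was 0.64 ± 0.11 above siControl (adjusted p = 0.000557). It was 0.30 ± 0.11 below siControl+DFO, which did not pass the test (adjusted p = 0.088). The Ncoa4 siRNA alone gave -0.05 ± 0.11 (adjusted p = 0.823).

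Mtfp1, an inner membrane protein of fission, is on chromosome 11, 4091481 to 4095431, minus strand. It was listed at 0 in 9 of the 12 libraries. The others were siControl replicate 2 at 0.208 FPKM and replicates 2 and 3 of siNCOA4+DFO at 0.655 and 0.566. It did not pass the filter of 0.5 FPKM in 3 libraries and was not tested, so the counts below are over 9 of the 10 members.

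Among the fusion genes, both mitofusins were lower in siNCOA4+DFO than in siControl, and Opa1 was lower with DFO in the control cells.

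Mfn1 lies at chromosome 3, 32529443 to 32579225, plus strand. Its levels were 24.2, 23.9 and 22.3 FPKM in siControl, 26.1, 22.4 and 23.4 in siNCOA4, 22.7, 21.0 and 23.0 in siControl+DFO, and 21.0, 19.3 and 20 in siNCOA4+DFO. The siNCOA4+DFO libraries were the lowest, replicate 1 lying just below replicate 2 of siControl+DFO, and the other 3 groups overlapped. Mfn1 was lower in siNCOA4+DFO than in siControl by 0.22 ± 0.08 (adjusted p = 0.0371) and than in siNCOA4 by 0.25 ± 0.08 (adjusted p = 0.0253). The call against siControl was lost without replicate 1 or 2 of siControl, siNCOA4 replicate 3, or replicate 2 or 3 of siNCOA4+DFO, with adjusted p from 0.0502 to 0.111, and when libraries were scaled to an equal sum without small RNA genes (adjusted p = 0.234), and in a fit of the compared groups alone (adjusted p = 0.0773). The call against siNCOA4 was lost without siNCOA4 replicate 1 (adjusted p = 0.112) or siNCOA4+DFO replicate 2 (adjusted p = 0.0836), and with the compared groups alone (adjusted p = 0.0608).

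Mfn2, which also tethers mitochondria to the endoplasmic reticulum, lies at chromosome 4, 147873586 to 147904909, minus strand. Its levels were 18.9, 19.0 and 17.2 FPKM in siControl, 15.3, 15.4 and 15.0 in siNCOA4, 15.4, 15.7 and 16.2 in siControl+DFO, and 14.8, 12.8 and 12.9 in siNCOA4+DFO. The siControl libraries lay above the 9 others, and the siNCOA4+DFO libraries below the 9 others. Mfn2 was lower in siNCOA4+DFO than in siControl by 0.44 ± 0.08, at 0.736 times its level (adjusted p = 0.000925), a call kept without each library in turn (adjusted p up to 0.0055). DFO alone lowered it by 0.22 ± 0.08 (adjusted p = 0.044), and this call was lost without replicate 1 or 2 of siControl, any siNCOA4 library or any siControl+DFO library, with adjusted p from 0.055 to 0.123, and under 3 other settings (0.0558 to 0.0639). The Ncoa4 siRNA alone gave -0.27 ± 0.08, which did not pass the test (adjusted p = 0.0617). Its unadjusted limma p of 0.00804 was below the 0.0229 of DFO alone. The adjustment was stricter for the siRNA, with 1399 genes called over all genes tested against 6365 for DFO alone. Without siNCOA4+DFO replicate 1, the highest of its group, the difference with the siRNA alone passed (adjusted p = 0.0487). So did those of siNCOA4+DFO from siControl+DFO (-0.22, adjusted p = 0.0923 with all libraries and 0.045 without that one) and from siNCOA4 (-0.17, adjusted p = 0.118 and 0.0489). The last also passed after quantile normalization (-0.27, adjusted p = 0.0191).

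Opa1, the GTPase of inner membrane fusion and of cristae shape, is at chromosome 16, 29579281 to 29663127, plus strand. It was measured at 25.8, 26.3 and 24.7 FPKM in siControl, 26.2, 29.2 and 27.6 in siNCOA4, 22.6, 18.2 and 19.1 in siControl+DFO, and 23.6, 23.8 and 26.6 in siNCOA4+DFO. The siControl+DFO libraries lay below all others, while siNCOA4+DFO overlapped siControl and siNCOA4. DFO lowered Opa1 by 0.36 ± 0.09 in control cells (adjusted p = 0.00569), and in NCOA4-depleted cells the change was -0.17 ± 0.09 (adjusted p = 0.175). Between the DFO groups Opa1 was 0.31 ± 0.09 higher with the Ncoa4 siRNA (adjusted p = 0.0411). The last call was kept only without siControl replicate 1, siNCOA4 replicate 2 or siControl+DFO replicate 1, and was lost without any of the other 9, with adjusted p from 0.0513 to 0.145, and under 4 other settings (0.0514 to 0.111).

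Of the proteases, Oma1 fell with DFO, and Yme1l1 was called only under another scaling.

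Oma1, a stress-activated protease that cuts OPA1, lies at chromosome 4, 103311875 to 103371869, plus strand. Its levels were 6.65, 9.83 and 9.58 FPKM in siControl, 8.72, 9.02 and 7.69 in siNCOA4, 3.41, 5.33 and 5.17 in siControl+DFO, and 5.48, 5.39 and 5.54 in siNCOA4+DFO. All libraries with DFO lay below all without it, and replicate 1 of siControl and replicate 1 of siControl+DFO were each the lowest of their group. DFO lowered Oma1 by 0.90 ± 0.19 on the log2 scale in control cells, to 0.537 times the level (adjusted p = 0.00162), and by 0.62 ± 0.19 in NCOA4-depleted cells (adjusted p = 0.0188). The siNCOA4+DFO group was lower than siControl by 0.64 ± 0.19 (adjusted p = 0.0141). The second of these calls was lost without siNCOA4 replicate 1 (adjusted p = 0.0535) or 2 (adjusted p = 0.0601), and the third without siControl replicate 2 (adjusted p = 0.0598) or 3 (adjusted p = 0.0553).

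Yme1l1, the protease that also cuts OPA1 under resting conditions, is on chromosome 2, 23155442 to 23199260, plus strand. It stood at 28.8, 31.9 and 32.9 FPKM in siControl, 34.1, 39.8 and 34.9 in siNCOA4, 36.3, 34.6 and 35.3 in siControl+DFO, and 34.6, 33.9 and 37.7 in siNCOA4+DFO. The siControl libraries lay below the other 9, which overlapped among themselves. Its differences from siControl were 0.22 ± 0.08 in siNCOA4 (adjusted p = 0.114), 0.19 ± 0.08 in siControl+DFO (adjusted p = 0.074) and 0.18 ± 0.08 in siNCOA4+DFO (adjusted p = 0.0815), with the 95% interval of the last from 0.01 to 0.36. With scaling to an equal sum without small RNA genes the first was 0.30 (adjusted p = 0.0449) and the last 0.27 (adjusted p = 0.0203), and both were called.

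The sequence that the members share with other genes was counted. Of the 75-base windows of each gene's annotated transcripts in GENCODE M21, at most 0.893% also occurred in transcripts of another gene, which was the share of Dnm1l with Gm13719. Exons of antisense genes overlapped 4.67% of the exonic bases of Dnm1l and 2.0% of those of Mff, and neither of these genes was among the 24343 measured.

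Counted by comparison, the Ncoa4 siRNA alone moved 1 of the 9 members tested, Dnm1l, which was higher, and 0 were lower, beside 4.52% of all genes called higher and 7.21% called lower. DFO alone moved 5, with Mtfr1 higher and Fis1, Oma1, Opa1 and Mfn2 lower, beside 27.7% of all genes higher and 25.7% lower. In siNCOA4+DFO against siControl 6 were called, Mtfr1 and Dnm1l higher and Fis1, Oma1, Mfn2 and Mfn1 lower, beside 25.4% and 23.4%. These 3 comparisons share the siControl libraries. The adjustment is less strict where more genes pass, so the counts of calls are not on the same footing. Before it, limma gave p below 0.05 for 3 members with the Ncoa4 siRNA alone, 6 with DFO alone and 7 with both. That count was 6 between the DFO groups and 4 for DFO in NCOA4-depleted cells. Between the DFO groups Opa1 and Dnm1l were higher with the Ncoa4 siRNA and 0 were lower, beside 6.22% of genes higher and 10.2% lower. With scaling to an equal sum without small RNA genes, 4 members were higher there, Fis1 and Mff being added, while the calls over all genes turned from 742 higher and 1221 lower to 1438 higher and 665 lower. In NCOA4-depleted cells DFO moved 4 members, Mtfr1 higher and Fis1, Oma1 and Mfn1 lower, beside 23.1% and 19.6%. Leaving out siControl replicate 2 brought the 6 of siNCOA4+DFO against siControl to 3, and leaving out siNCOA4 replicate 1 brought these 4 to 2.

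The fold changes of the members tested stayed within 2-fold in the fit described. With the fold change above 2 that the study also asked for, 0 members were called in each of these comparisons, in which 1.78%, 18.8%, 15.2%, 2.09% and 11.4% of all genes were called in the order given. For DFO alone this 0 depended on single libraries. Leaving 1 out brought the log2 change as far as -1.25 for Fis1, -1.077 for Oma1 and 1.001 for Mtfr1, each past 2-fold. The median change of the 9 members was 0.11 for the Ncoa4 siRNA alone, where that of all genes was 0.01, and -0.08 for DFO alone, where it was -0.01. It was -0.05 for both treatments together, 0.26 between the DFO groups and -0.17 for DFO in NCOA4-depleted cells, with medians of all genes within 0.01 of 0. Without siControl replicate 1 the first median was 0.03 and the second -0.20, and without siControl+DFO replicate 1 the fourth was 0.06.

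The interaction, the change with DFO in NCOA4-depleted cells minus that in control cells, was called by limma for 0 of the 9 members and for 2.1% of all genes, and 0 members had an unadjusted p below 0.05. Its estimates were 0.24 ± 0.27 for Fis1 (95% interval -0.36 to 0.84), 0.28 ± 0.27 for Oma1 (-0.30 to 0.86), -0.25 ± 0.16 for Mtfr1 (-0.60 to 0.10) and 0.20 ± 0.13 for Opa1 (-0.09 to 0.48). These intervals still hold differences about as wide as some of the called changes.

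**Figure D2:**
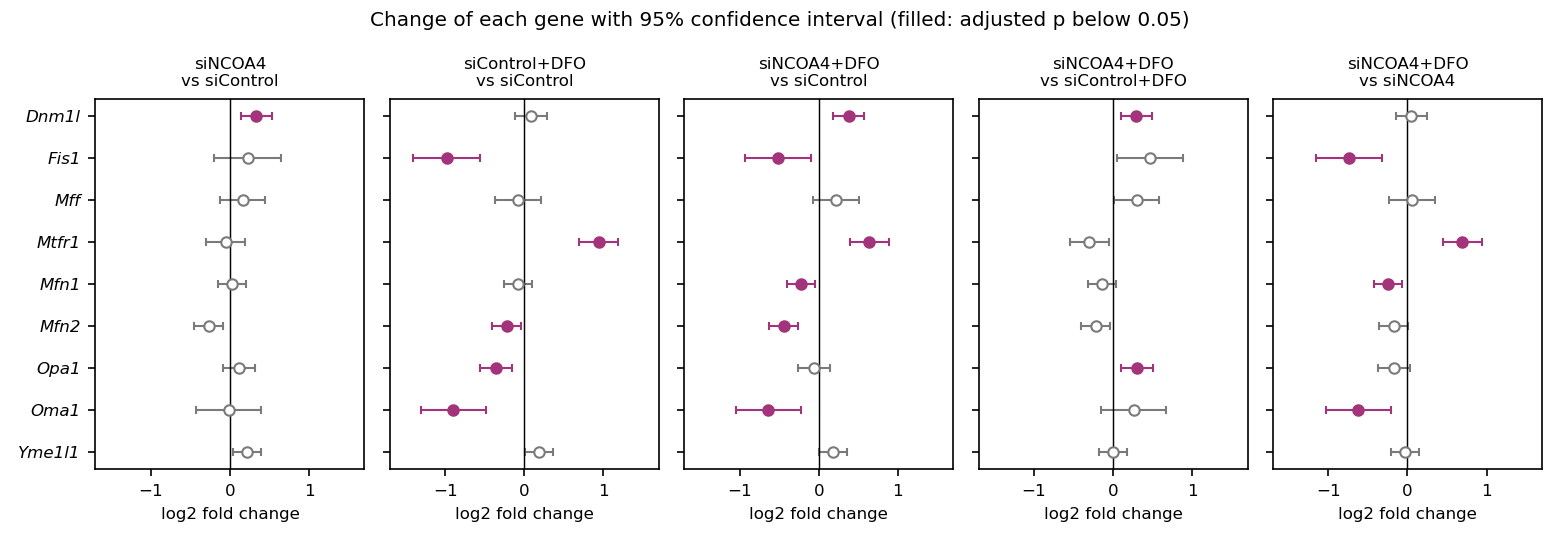
Change of each of the 9 tested genes in 5 comparisons as log2 fold change on the horizontal axis, with bars for the 95% confidence interval from limma and filled points where the adjusted p was below 0.05. Fis1 and Oma1 lie left of 0 and Mtfr1 right of 0 in the 3 comparisons of DFO with no DFO, and the narrow intervals of Dnm1l and Mfn2 contrast with the wide ones of Fis1 and Oma1.

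The balance between the mitofusins was compared directly within libraries, since a ratio in 1 library does not depend on its scaling. The log2 ratio of Mfn2 to Mfn1 was -0.355, -0.337 and -0.376 in siControl, -0.771, -0.547 and -0.638 in siNCOA4, -0.564, -0.419 and -0.508 in siControl+DFO, and -0.503, -0.595 and -0.629 in siNCOA4+DFO. The siControl libraries had the highest ratios and did not overlap any other group. The group mean was lower than in siControl by 0.30 in siNCOA4, by 0.14 in siControl+DFO and by 0.22 in siNCOA4+DFO, each with p = 0.1 in a two-sided exact permutation test over the 6 libraries, which is the smallest p that 3 against 3 libraries can give (0.167 after adjustment over the 5 comparisons made). The siNCOA4+DFO group differed from siControl+DFO by -0.08 (exact p = 0.3) and from siNCOA4 by 0.08 (exact p = 0.4).

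**Figure D3:**
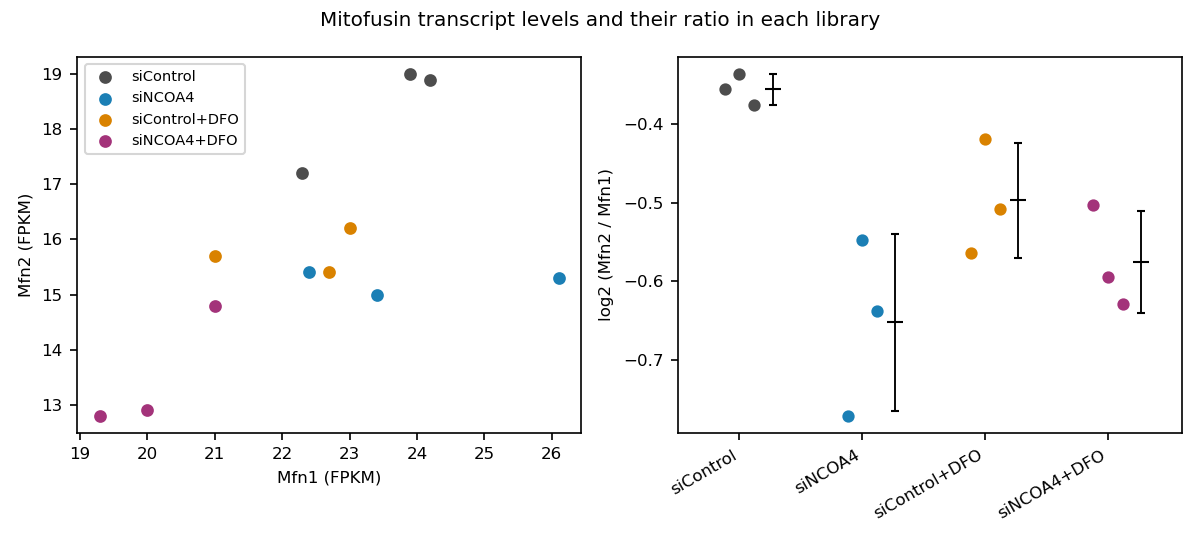
Left, FPKM of Mfn2 against FPKM of Mfn1 with 1 point per library; right, the log2 ratio of Mfn2 to Mfn1 in each library with the mean and SD of 3 libraries beside the points. The siControl libraries lie between -0.376 and -0.337, above all libraries of the other groups.

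Over the 12 libraries the members formed a few like patterns. Levels of Fis1 and Oma1 had a Pearson correlation of 0.91 on the log2 scale, and Mtfr1 ran opposite to Fis1 at -0.90 and to Oma1 at -0.89. After the group means were taken out, the first of these was 0.63 and the others -0.40 and -0.26. Mff followed Fis1 at 0.89 and Yme1l1 at 0.87 within groups, where the libraries of 1 group share their treatment and differ in depth. The genes whose levels were most like those of Mtfr1, the member with the widest rise in siNCOA4+DFO against siControl, were Bdp1 (r = 0.986), Ammecr1l (0.985) and Stil (0.981). Those most like Oma1, the member with the widest fall, were Tmem176a (0.951), Tecr (0.947) and Cdkn3 (0.946). These are descriptions over 12 libraries in 4 groups, with treatment as the main axis.

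The members were set beside 6 lists of 79 other genes of mitochondrial dynamics, structure and content, of which 75 were tested. With DFO alone 18 of the 75 were called higher and 25 lower (24.0% and 33.3%), with both treatments 13 and 22 (17.3% and 29.3%), and with the Ncoa4 siRNA alone 1 and 7 (1.33% and 9.33%). The shares of all genes called were 27.7% and 25.7%, 25.4% and 23.4%, and 4.52% and 7.21% in the same order, so that with DFO alone the shares of the 75 lay near those of all genes. Between the DFO groups 3 were higher and 6 lower with the Ncoa4 siRNA (4.0% and 8.0%, beside 6.22% and 10.2% of all genes). In NCOA4-depleted cells DFO raised 14 and lowered 20 (18.7% and 26.7%, beside 23.1% and 19.6%). The median change of the 75 was -0.14 with DFO alone and -0.11 with both.

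Of 16 other fission genes tested, 9 (56.2%) were called higher and 4 (25.0%) lower with DFO alone, beside 27.7% and 25.7% of all genes, and their median change was 0.30. The difference from all genes was not tested. The list was not divided by whether a gene promotes or restrains fission, so these counts do not give a direction of fission. March5, a ubiquitin ligase of the outer membrane, rose from 29.8 to 39.5 FPKM in siControl to 69.2 to 87.3 (1.18 ± 0.14, adjusted p = 2.14e-05). Akap1, which anchors protein kinase A on mitochondria, rose from 21.3 to 23.5 FPKM to 47.4 to 52.6 (1.14 ± 0.12, adjusted p = 7.63e-06). Dnm1, the dynamin of synaptic vesicle endocytosis, fell by 0.98 ± 0.12 with DFO (adjusted p = 3.14e-05), by 0.58 with the Ncoa4 siRNA (adjusted p = 0.0104) and by 1.24 with both (adjusted p = 6.05e-06). Coro1c, an actin-binding protein, fell by 0.52 with the Ncoa4 siRNA (adjusted p = 0.00119) and by 0.94 with both (adjusted p = 1.36e-06), and was the one gene of this list called between the DFO groups. With the Ncoa4 siRNA alone 0 of the 16 were called higher and 2 (12.5%) lower, beside 4.52% and 7.21% of all genes. With both treatments the counts were 6 and 3 (37.5% and 18.8%, beside 25.4% and 23.4%).

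Of 7 other fusion genes tested, 1 was called higher and 4 lower with DFO alone (14.3% and 57.1%, beside 27.7% and 25.7% of all genes). These shares were not tested against those of all genes. This list, too, was not divided by how a gene acts on fusion, so its counts do not give a direction of fusion. Bak1, a pore-forming protein of apoptosis that also affects mitochondrial fusion, fell from 42.3 to 50.2 FPKM to 19.5 to 19.8 (-1.20 ± 0.09, adjusted p = 3.94e-07), while its relative Bax rose from 42.0 to 52.7 FPKM to 88.8 to 101 (1.04 ± 0.12, adjusted p = 1.99e-05). Mtch2, an outer membrane protein, fell by 0.64 (adjusted p = 4.28e-05). With both treatments Bak1 fell by 1.06 (adjusted p = 1.55e-06) and Bax rose by 0.77 (adjusted p = 0.000238). Stoml2, which stabilizes OPA1 and the prohibitins, fell by 0.51 with DFO alone (adjusted p = 0.00276) and by 0.74 with both treatments (adjusted p = 0.00021). With the Ncoa4 siRNA alone 0 of the 7 were called, beside 4.52% of all genes higher and 7.21% lower.

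The list of inner membrane quality control holds inner membrane proteases, the prohibitins, matrix proteases, presequence peptidases and some of their partners. It had 1 gene higher and 5 lower of 15 tested with DFO alone (6.67% and 33.3%, beside 27.7% and 25.7% of all genes), and the same counts with both treatments (beside 25.4% and 23.4%). Lonp1, the matrix protease, was the one that rose, from 73.5 to 77.7 FPKM to 225 to 236 (1.60 ± 0.11, adjusted p = 1.85e-07) and to 128 to 176 with both treatments (1.04, adjusted p = 8.12e-06). Phb, a prohibitin scaffold subunit, fell by 0.75 ± 0.12 with DFO (adjusted p = 0.000195) and by 0.90 with both (adjusted p = 5.29e-05). Phb2, its partner, fell by 0.325 with DFO (adjusted p = 0.0106), by 0.36 with the Ncoa4 siRNA (adjusted p = 0.0255) and by 0.72 with both (adjusted p = 4.55e-05). Htra2, a protease of the intermembrane space, fell by 0.53 with DFO (adjusted p = 0.00205).

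**Figure D4:**
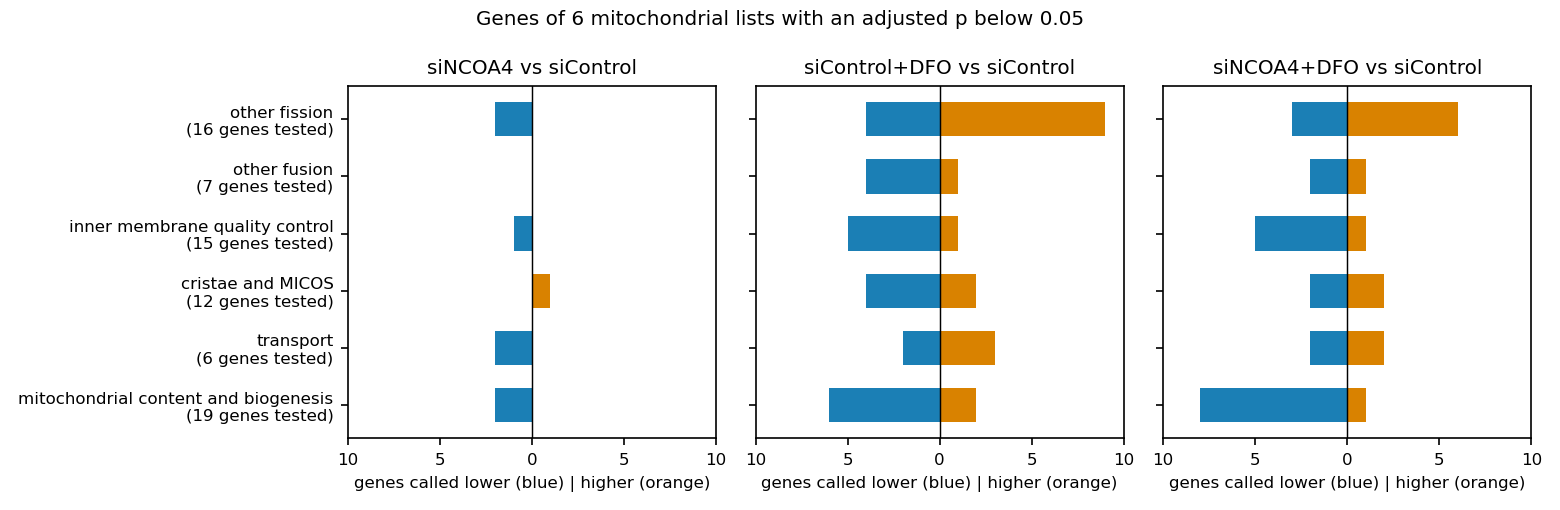
Number of genes with an adjusted p below 0.05 in each of 6 lists in 3 comparisons with siControl, higher to the right and lower to the left of 0. Other fission genes show 9 higher and 4 lower of 16 with DFO alone and inner membrane quality control 1 higher and 5 lower of 15, beside 27.7% higher and 25.7% lower over all genes.

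In the list of cristae and of MICOS, the complex that holds crista junctions, 2 of 12 tested were higher and 4 lower with DFO alone (16.7% and 33.3%, beside 27.7% and 25.7% of all genes). Chchd10, a protein of the intermembrane space, was listed at 0 in the 3 siControl libraries and at 0.386, 1.97 and 1.73 FPKM in siControl+DFO, near the filter's floor. Apoo, a MICOS subunit, rose by 1.24 ± 0.23 with DFO (adjusted p = 0.000707), by 0.92 with both treatments (adjusted p = 0.00547) and by 0.90 with the Ncoa4 siRNA (adjusted p = 0.0263). Its siControl libraries ranged from 3.90 to 8.47 FPKM, and replicate 1 was the lowest. Apool, its relative, fell by 0.82 with DFO (adjusted p = 0.0134). The MICOS subunit 2410015M20Rik, also called Mic13, fell by 0.61 with DFO (adjusted p = 0.0291) and by 0.86 with both treatments (adjusted p = 0.00553).

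Mitochondrial transport, the movement along microtubules through Miro and TRAK adaptors, had 3 genes higher and 2 lower of 6 tested with DFO alone (50.0% and 33.3%, beside 27.7% and 25.7% of all genes). Rhot2, a Miro GTPase, fell from 11.8 to 16.6 FPKM to 7.09 to 7.87 (-0.85 ± 0.12, adjusted p = 7.7e-05), and stood at 11.2 to 12.6 in siNCOA4+DFO. Trak2, an adaptor, was at 16.0 to 18.8 FPKM in siControl, 11.3 to 11.6 in siNCOA4, 21.8 to 23.2 in siControl+DFO and 12.3 to 13.0 in siNCOA4+DFO, so that the 6 libraries with the Ncoa4 siRNA lay below the others (-0.60 ± 0.08 for siNCOA4 against siControl, adjusted p = 0.000671). Trak1 fell by 0.35 with the Ncoa4 siRNA (adjusted p = 0.0225) and by 0.50 with DFO (adjusted p = 0.000444). Armcx3, which binds Miro, rose by 0.56 with DFO (adjusted p = 0.00129) and by 0.57 with both (adjusted p = 0.00122). Kif5b, a kinesin motor, rose by 0.48 with DFO (adjusted p = 0.000262) and by 0.42 with both (adjusted p = 0.000777).

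Of 19 genes listed for mitochondrial content and biogenesis, 2 were higher and 6 lower with DFO alone (10.5% and 31.6%, beside 27.7% and 25.7% of all genes). With both treatments 1 was higher and 8 lower (5.26% and 42.1%, beside 25.4% and 23.4%). These are transcript levels, and the amount of mitochondria in the cells was not measured in these libraries. The coactivators Ppargc1a and Ppargc1b fell by 1.38 ± 0.21 (adjusted p = 0.000122) and 1.48 ± 0.27 (adjusted p = 0.000656) with DFO. Ppargc1a was at 3.50 to 4.07 FPKM in siControl, 1.94 to 2.96 in siNCOA4, 1.36 to 1.54 in siControl+DFO and 2.19 to 3.01 in siNCOA4+DFO. Its change was -0.60 with the Ncoa4 siRNA alone (adjusted p = 0.0838) and 0.08 with DFO in NCOA4-depleted cells (adjusted p = 0.786). Ppargc1a was the one gene of this list with a called interaction (1.46 ± 0.29, adjusted p = 0.0283). Esrra, a nuclear receptor that these coactivators act with, rose by 1.29 ± 0.17 with DFO (adjusted p = 3.92e-05) and by 1.19 with both (adjusted p = 8.89e-05). With both treatments Ppargc1b fell by 1.10 (adjusted p = 0.00529). Nrf1, the respiratory gene factor, fell by 0.765 with DFO alone (adjusted p = 0.00265) and by 0.72 with both treatments (adjusted p = 0.0043). With the Ncoa4 siRNA alone Pprc1, a related coactivator, fell by 0.40 (adjusted p = 0.0324) and Tomm70a, an import receptor, by 0.39 (adjusted p = 0.00749).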

How the data were processed

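The authors deposited 1 table of FPKM values per library, and per the labels the processing involved Trimmomatic 0.33, FastQC, HISAT2 2.1.0, featureCounts and edgeR with build mm10. Libraries were made with a stranded low-input kit. The gene annotation is not given in the sources used here, and no read counts were used. FPKM depends on the share of fragments from other genes, including small RNA genes. Each table held 24347 entries, 4 of which shared a name and were left out.

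Groups and replicate numbers came from the sample titles. Genes with at least 0.5 FPKM in at least 3 libraries (11924, with 9 of the 10 members) were fitted as log2(FPKM + 0.1) with a means model over all 12 libraries in limma 3.58.1 (R 4.3.3), with empirical Bayes moderation and a mean-variance trend (8 residual degrees of freedom). P-values are two-sided and Benjamini-Hochberg adjusted over all genes tested within each comparison, and a fold change on this scale understates that of low genes. The labels name biological replicates of 1 cell line, so p-values measure the spread between these cultures. In tests on simulated data for siControl+DFO against siControl over 11924 genes, 28% of 200 genes changed by 0.5 on the log2 scale and 94% of those changed by 1 were recovered. Only those 200 genes were changed in each simulation, whereas 6365 genes were called in the data. The adjustment is less strict where more genes pass, so these shares do not give the recovery in the data.

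The members and lists were chosen with earlier results of these data known. Named were all 10 members, Ncoa4 and Tfrc as checks, the 3 called genes with the largest change of each list in each comparison with siControl, and the 3 genes closest by Pearson correlation to the member with the largest rise and the one with the largest fall. A list gene named for a comparison could also be called in others. The alternatives were other pseudocounts (1 and 0.01), filters (none, or 2 FPKM), scalings (median-of-ratios, quantile, equal sum without small RNA genes), moderation, the compared groups only, the replicate number as a block, the 2-fold threshold, and leaving out each library. Genome positions and promoters came from RefSeq (GRCm38.p6), transcripts from GENCODE M21. Protein sequences were not used here.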

Additional observations from a re-analysis of the deposited data

How the results depend on the processing

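Of 585 values of single members recomputed under other settings, 561 stayed on the same side of the threshold, 19 lost their call, 5 gained one and 0 reversed. Leaving out each library in turn lost 54 calls and gained 4 among 648 values. Most of these values were not called in the fit described and had no call to lose. A reversal was counted only for a value called in either fit. Uncalled values did change sign, such as Fis1 in siNCOA4 against siControl, from 0.225 to -0.044 without siControl replicate 1. The calls of Mtfr1, of Fis1, Oma1 and Opa1 with DFO alone, of Mfn2 and Dnm1l in siNCOA4+DFO against siControl, and of Fis1 with DFO in NCOA4-depleted cells held under every setting run except the 2-fold threshold. For siNCOA4 against siControl the count of 1 member was 2 with an equal sum without small RNA genes (the median change then 0.192), 0 with no mean-variance trend, 0 with the 2-fold threshold and 0 to 2 without single libraries, where the median was 0.027 to 0.149. With the 2-fold threshold it was 0 in the 4 other comparisons as well. Counts with this threshold were made with all libraries only. For siNCOA4+DFO against siControl+DFO the count of 2 was 0 without a filter, 0 without the trend, 0 with only the compared groups, 4 with the equal sum and 0 to 3 without single libraries, and its median was 0.171 after quantile normalization, 0.39 with the equal sum and 0.057 to 0.28 without single libraries. The equal sum also moved the median of all genes there by 0.129, and turned the share of higher among all calls from 37.8% to 68.4%; quantile normalization gave 50.6%. That share went from 38.5% to 60.8% for siNCOA4 against siControl with the equal sum, and the median of siNCOA4+DFO against siControl was 0.036. After quantile normalization the median was -0.191 for DFO alone and -0.242 for DFO in NCOA4-depleted cells. Without single libraries the median for DFO alone was -0.197 to -0.066, the count for siNCOA4+DFO against siControl 3 to 5, and that for siNCOA4+DFO against siNCOA4 2 to 5. Same-numbered libraries did not deviate together (correlations -0.127 to 0.116 over 18 pairs, median -0.012, against -0.174 to 0.162 for other pairs), so the numbers were not taken as pairs; with the replicate block the count between the DFO groups was 1, since Opa1 had an adjusted p of 0.0682, and Mfn2 lost its call with DFO alone (0.0624). Mfn2 also lost that call with robust moderation (0.0558) and with only the compared groups (0.0639). The cause of these changes was not tested.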
